A study of Mus musculus with 6 samples.

Results

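The choroid plexus is a sheet of secretory epithelium in the brain ventricles that makes cerebrospinal fluid and lies directly against the hippocampus. Its cells move ions, water, vitamins and hormones from blood to fluid through transporters on both faces, are sealed by tight junctions, and release carrier proteins such as transthyretin, which is encoded by Ttr. Because transthyretin RNA is so abundant in this epithelium and scarce in neurons and glia, its level is commonly read as a sign of choroid plexus in a hippocampal dissection.

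The series held 6 RNA-seq libraries of hippocampus from wild type C57BL/6 mice of 56 days. In 3 libraries the mice had ischemia/reperfusion (I/R): an intraluminal filament closed the left middle cerebral artery for 1.5 h, and 24 h of reperfusion followed its removal. The other 3 libraries were from sham mice, which had the same operation without the filament. Per the study's methods the mice were male C57BL/6J, the hippocampi were from the operated side, and each library pooled several hippocampi, so replicates differ as pools of animals do.

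The 6 libraries were selected on their read count of Ttr alone, above or below 10000. I/R replicates 1 and 2 held 68521 and 138610 counts of Ttr, and sham replicates 2 and 3 held 101015 and 140679. These 4 libraries are called Ttr-high. I/R replicate 3 held 810 counts and sham replicate 1 held 385, and these 2 libraries are called Ttr-low. The values nearest to the threshold were therefore 68521 above it and 810 below it, and each treatment had 2 Ttr-high libraries and 1 Ttr-low library. Ttr made up 0.173% to 0.375% of all counts in the Ttr-high libraries, against 0.00215% and 0.000907% in the Ttr-low ones. Total counts were 37493042 to 44788547 and did not follow the split. Since Ttr in these libraries chose the groups, every difference across the split is a description and carries no test.

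Levels are CPM, counts per gene relative to the library's total count, on library sizes scaled with edgeR's TMM factors (trimmed mean of M-values). Log2 fold changes across the split are Ttr-high minus Ttr-low, with their standard error (SE), fitted with treatment as a covariate. A gene is called higher where the fitted log2 fold change was at least 1 and, in each treatment, both Ttr-high libraries lay above the Ttr-low library. In bulk tissue, fewer cells of a type and less RNA per cell cannot be told apart.

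The 5 markers of choroid plexus epithelium all moved with Ttr. Ttr itself was at 1505 and 3467 CPM in I/R replicates 1 and 2, at 2486 and 4089 CPM in sham replicates 2 and 3, and at 20.3 and 9.86 CPM in I/R replicate 3 and sham replicate 1. Clic6, a member of the chloride intracellular channel family, was at 34.9, 43.8, 55.3 and 100.7 CPM in the 4 Ttr-high libraries in the same order and at 1.40 and 1.31 CPM in the Ttr-low ones. Folr1, the receptor that carries folate into the epithelium, was at 9.71, 28.8, 17.3 and 32.1 CPM against 0.850 and 0.666 CPM. In each of these genes the lowest Ttr-high library lay well above both Ttr-low libraries.

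Kcnj13, an inward rectifier potassium channel of the apical membrane, was at 2.11, 6.00, 4.18 and 6.28 CPM in the Ttr-high libraries and at 0.225 and 0.128 CPM in the Ttr-low libraries. Kl encodes klotho, a co-receptor for fibroblast growth factors, and was at 31.9, 51.4, 97.0 and 152.7 CPM against 9.13 and 24.0 CPM. Kl differed from the other markers in its level in the Ttr-low libraries: the Ttr-low sham library was only a little under I/R replicate 1. The fitted log2 fold changes were 7.59 ± 0.66 (SE) for Ttr, 5.35 ± 0.40 for Clic6, 4.83 ± 0.61 for Folr1, 4.67 ± 0.64 for Kcnj13 and 2.29 ± 0.27 for Kl. None of the 5 markers was at 0 in a Ttr-low library. Whether these low levels came from choroid plexus or from other cells was not tested.

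**Figure D1:**
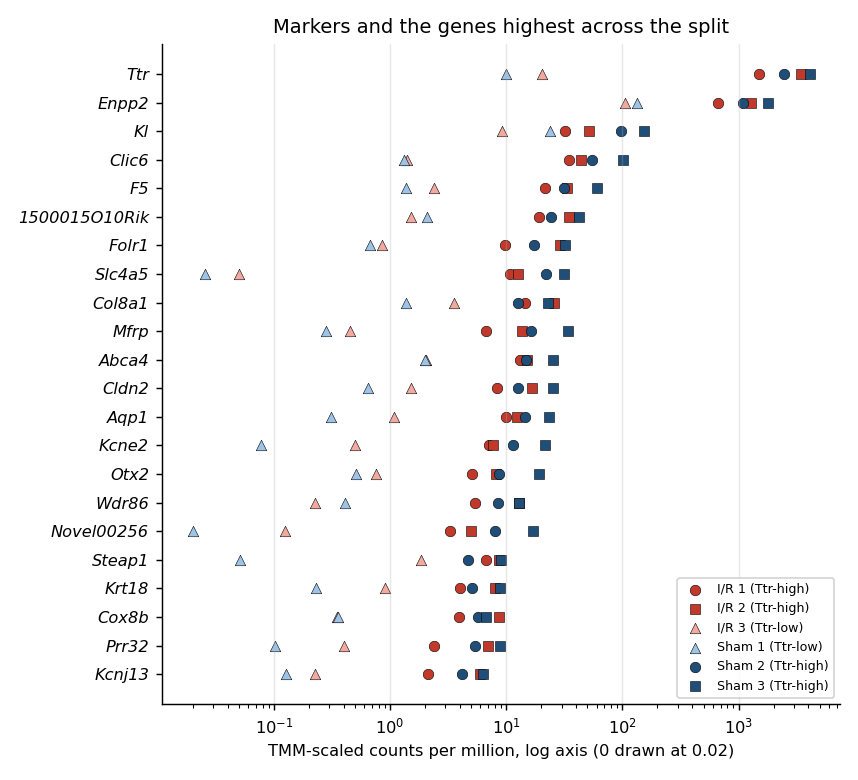
Level in each of the 6 libraries (CPM after TMM scaling, log axis) of the 5 markers and of the 20 genes with the largest fold change across the split and a mean of at least 5 CPM in the Ttr-high libraries. Circles and squares are the 4 Ttr-high libraries and triangles the 2 Ttr-low ones, red for I/R and blue for sham. In all genes shown, the Ttr-high libraries lie to the right of both Ttr-low libraries. CPM is not divided by gene length, so positions compare libraries within a gene and not genes with each other.

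Across all genes, 313 of 18569 tested were higher in the Ttr-high libraries by this rule, which is 1.69% of all genes tested, and 99 (0.533%) were lower. At a 4-fold threshold 87 genes (0.469%) were higher. With no count filter 669 were higher and 731 lower, so that the majority turned. Leaving out 1 library gave 317 to 932 higher, with 932 without sham replicate 1, and 187 to 625 lower, with 625 without I/R replicate 3. Of the 313, 147 had a mean under 1 CPM in the Ttr-high libraries and 69 had at least 5 CPM. No gene name was given for 47 of the 313. The 20 genes with the largest fold change among the 69 are described next by what their proteins do.

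Slc4a5, a sodium bicarbonate cotransporter, had the largest fold change. It was at 10.7, 12.5, 22.1 and 31.6 CPM in the Ttr-high libraries, and its Ttr-low libraries held 2 and 1 counts, so its fitted log2 fold change of 8.84 depends on how near-zero counts are handled. The ratio of summed counts, 2974 against 3, was 488 after scaling (95% exact interval 167 to 2368, counting error only). Slc4a5 lies on chromosome 6 from 81036928 to 81122658 on the plus strand (BALB/cJ assembly, the annotation used in the files).

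Besides Slc4a5 and Clic6, the 20 also held Kcne2, a potassium channel beta subunit, and Aqp1, the water channel of the apical membrane. Kcne2 was at 7.14, 7.65, 11.5 and 21.4 CPM against 0.5 and 0.0768 CPM, a log2 fold change of 5.19 ± 0.71. Aqp1 was at 10, 12.4, 14.5 and 23.3 CPM against 1.08 and 0.307 CPM, a log2 fold change of 4.36 ± 0.56. In both genes, as in Ttr, I/R replicate 3 was the higher of the Ttr-low libraries.

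Among genes of the cell surface, Mfrp, which encodes a frizzled-related membrane protein, was at 6.63, 13.6, 16.4 and 33.9 CPM against 0.450 and 0.282 CPM, and its log2 fold change was 5.44 ± 0.65. The claudin that forms a cation-permeable pore in tight junctions, Cldn2, differed by 3.80 ± 0.58 on the log2 scale. Steap1, of a family of metalloreductases, differed by 3.21 ± 0.81. Its Ttr-low libraries were unequal, with 1.85 CPM in I/R replicate 3 and 0.0512 CPM in sham replicate 1. Abca4, a lipid transporter best known from photoreceptors, differed by 3.05 ± 0.29 and was nearly equal in the Ttr-low libraries, at about 2 CPM in each.

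Enpp2, which encodes autotaxin, the secreted enzyme that makes lysophosphatidic acid, had the largest excess per gene length of the 20 after Ttr. It was at 669, 1290, 1084 and 1803 CPM against 105.6 and 134.2 CPM, a log2 fold change of 3.32 ± 0.36. Unlike Slc4a5, it kept a level of over 100 CPM in the Ttr-low libraries, where Ttr was at 20.3 CPM or less. F5, coagulation factor V, differed by 4.20 ± 0.48, and Col8a1, a chain of the short-chain collagen VIII, by 3.01 ± 0.43.

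Otx2 is a homeodomain transcription factor that choroid plexus epithelium depends on. It was at 5.08, 8.23, 8.59 and 19.1 CPM against 0.750 and 0.512 CPM, and its log2 fold change was 3.89 ± 0.56. Krt18, an intermediate filament protein of simple epithelia, differed by 3.55 ± 0.60. The rest of the 20 were Wdr86 (4.96 ± 0.53), Prr32 (4.49 ± 0.75), Cox8b, a subunit of cytochrome c oxidase (4.13 ± 0.44), 1500015O10Rik (4.06 ± 0.38) and Novel00256, a locus the authors assembled (6.81 ± 0.88, with 5 counts and 0 counts in the Ttr-low libraries).

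The 250 bases before the transcription start are shown for 4 of these genes, because Otx2 is itself among the genes that moved and its family binds the core TAATCC. Sequences are from RefSeq on GRCm38.p6, a different build from that of the files, and are written 5′ to 3′ along the gene with that core in capitals. On this strand it reads GGATTA in all 3 genes that hold it. Slc4a5 is shown as the gene with the largest fold change.
Slc4a5 (chr6:83237125-83237374, plus strand): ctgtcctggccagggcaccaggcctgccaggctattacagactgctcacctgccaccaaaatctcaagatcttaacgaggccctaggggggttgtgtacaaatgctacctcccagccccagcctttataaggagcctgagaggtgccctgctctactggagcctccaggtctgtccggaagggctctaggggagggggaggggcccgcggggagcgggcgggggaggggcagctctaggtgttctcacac
Mfrp (chr9:44101520-44101769, plus strand): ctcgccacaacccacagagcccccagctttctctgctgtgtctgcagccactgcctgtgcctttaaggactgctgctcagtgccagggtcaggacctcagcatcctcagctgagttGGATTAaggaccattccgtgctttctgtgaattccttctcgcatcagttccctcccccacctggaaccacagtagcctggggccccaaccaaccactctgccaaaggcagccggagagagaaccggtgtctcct
Abca4 (chr3:122044210-122044459, plus strand): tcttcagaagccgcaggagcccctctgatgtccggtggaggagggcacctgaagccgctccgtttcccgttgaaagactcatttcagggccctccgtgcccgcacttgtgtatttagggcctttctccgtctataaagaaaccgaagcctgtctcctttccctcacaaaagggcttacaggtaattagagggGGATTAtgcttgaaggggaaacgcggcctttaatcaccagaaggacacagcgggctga
Otx2 (chr14:48665110-48665359, minus strand): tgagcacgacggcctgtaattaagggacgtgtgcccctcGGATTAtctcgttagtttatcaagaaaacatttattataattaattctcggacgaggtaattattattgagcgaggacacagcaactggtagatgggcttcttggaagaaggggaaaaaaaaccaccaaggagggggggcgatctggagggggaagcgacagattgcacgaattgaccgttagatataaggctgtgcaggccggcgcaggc
The capitals begin 134 bases before the start in Mfrp, 58 before it in Abca4 and 211 before it in Otx2. Of the 22 genes that are markers or among the 20, 16 had a window in the RefSeq table, and a gene was counted where any of its windows held the string. Otx2 had 4 windows and Kcne2 had 2, for different starts, and the Otx2 window shown is the 1 of the 4 that holds TAATCC. On either strand TAATCC was in 3 of the 16 genes (18.8%), against 6.39% of 11873 tested genes with a window, or in 3 of 20 windows against 5.2% of 15121. This core was 1 of 8 letter strings searched, after the genes were known. The others were TAATTA (2 of 16, against 3.32% of tested genes), GTTGCC (5, against 12.7%), GTTGCTA (1, against 3.6%), TATAAA (5, against 8.29%), CACGTG (1, against 9.37%), GTAAACA (0, against 2.72%) and TGACGTCA (0, against 2.89%). Otx2 is among the 5 genes for GTTGCC and among the 5 for TATAAA through other windows than the one shown. No string contains another, though GTTGCC and GTTGCTA share their first letters. A match in a window is a string of letters and not a site shown to be bound.

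Wider lists of choroid plexus genes were also compared across the split. They include the markers and several of the leading genes, and were chosen with earlier results of these data known. The 7 lists held 77 genes, of which 75 were tested and 31 were higher (41.3%, beside 1.69% of all genes tested), with 0 lower. Vegfa and Cgn were not analysed here. Their median log2 fold change was 0.62, and 0.56 without Ttr, beside -0.00052 for all genes tested. Of the 75, 67 had a fold change above 0.

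Of the 12 secreted and carrier proteins tested, 7 were higher and the median was 1.17. The lowest was Cst3, cystatin C, at 0.05 ± 0.15, with 1062 to 1222 CPM over the 6 libraries. Igf2, an insulin-like growth factor, was at 76.1, 108.3, 148.3 and 215.8 CPM against 52.4 and 65.0 CPM. It differed by 1.14 ± 0.24, and Igfbp2, which binds it, by 1.21 ± 0.29.

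Of 18 genes of ion and water transport, 8 were higher and 6 of them passed 4-fold, with a median of 0.76. Of 16 genes of nutrient and solute transport, 4 were higher and the median was 0.37. These 4 were Folr1, the organic anion transporter Slco1a5 (3.23 ± 0.87), the nucleoside transporter Slc28a3 (2.90 ± 0.62) and the lactate transporter Slc16a8 (2.37 ± 0.32).

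Of 10 receptors, 4 were higher and the median was 0.31. These 4 were Mfrp, Kl, the prolactin receptor Prlr (1.91 ± 0.55) and the leptin receptor Lepr (1.2 ± 0.27). The serotonin receptor Htr2c, which choroid plexus and neurons both use, had 0.37 ± 0.20 and was at 25.8 and 39.3 CPM in the Ttr-high I/R libraries against 30.0 CPM in the Ttr-low one, so these overlapped. Of 9 junction and epithelial genes, 5 were higher, with a median of 1.05, among them Cldn1 (1.53 ± 0.26) and Krt8 (2.72 ± 0.59). Of 10 transcription factors, 3 were higher and the median was 0.44. These 3 were Otx2, Lmx1a (2.85 ± 0.47) and Msx1 (1.59 ± 0.22), while Foxj1, which drives motile cilia, had 0.38 ± 0.22.

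The lists of other cell types and of neighbouring tissue had medians of 0.44 or less, a range that also held the receptors, transcription factors and nutrient transporters above. Of 25 motile cilia genes, which ependyma also expresses, 1 was higher (Spag16, 1.07) and the median was 0.14. None of the tested genes met the rule in either direction in the lists of endothelium (11 genes, median 0.23), meninges and fibroblasts (9, 0.24), border macrophages (6, 0.44), thalamus and habenula (8, 0.19), striatum (7, 0.14), neocortex (4, -0.06), oligodendrocytes (8, 0.04), microglia (5, 0.01) and astrocytes (6, -0.06). Erythrocytes were represented by 1 gene, Alas2, at 0.14.

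The lists of hippocampal neurons lay below 0. All 6 dentate granule cell genes tested had a fold change below 0, with a median of -0.33, and all 7 CA pyramidal cell genes did, with a median of -0.19. The summed level of the dentate list was 173 and 300 CPM in the Ttr-high I/R libraries against 320 CPM in the Ttr-low one, and 560 and 584 CPM against 628 CPM in sham. The summed CA list was 223 and 490 CPM against 548 CPM in I/R, and 1066 and 1002 CPM against 1034 CPM in sham, where the libraries overlapped. The markers of the labelled tissue were thus present in every library.

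Injury also differed between the I/R libraries. The summed level of 8 injury response genes was 3080 CPM in I/R replicate 1, 1534 CPM in replicate 2 and 1458 CPM in replicate 3, and 74.3 to 91.4 CPM in sham. I/R replicate 1 is Ttr-high, and it also had the highest sums of the endothelium, fibroblast and border macrophage lists. Spp1, osteopontin, was at 1082, 532 and 431 CPM in I/R. Their part in the differences across the split was not tested.

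**Figure D2:**
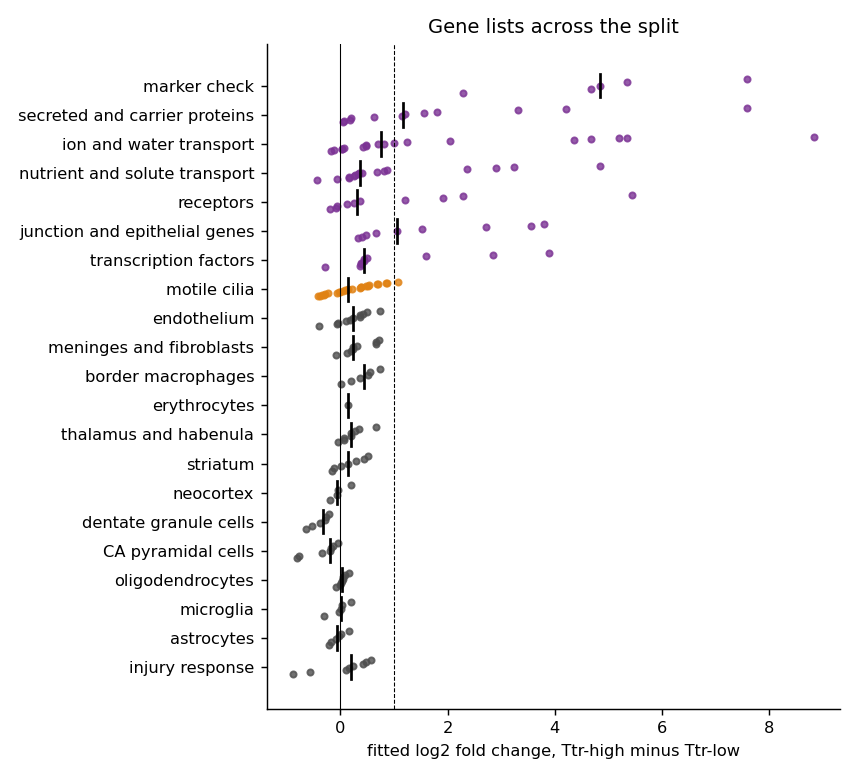
Fitted log2 fold change across the split (Ttr-high minus Ttr-low) of each tested gene in 21 lists, 1 point per gene, with the median of the list as a black bar. Purple lists are choroid plexus, orange is motile cilia and grey are other cells and injury; the dashed line is 2-fold. The marker list has a median of 4.83, and no list outside choroid plexus has a median above 0.44.

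The same comparison was made within each treatment, where the libraries are not shared. In I/R, 210 genes (1.13% of those tested) were at least 2-fold higher in the mean of the Ttr-high libraries than in the Ttr-low library, after adding 0.5 CPM. In sham there were 165 (0.889%). The 75 genes in both made up 35.7% of the I/R genes and 45.5% of the sham genes. At 4-fold there were 26 genes (0.14%) in I/R and 55 (0.296%) in sham, and the 24 in both made up 92.3% and 43.6% of them. For Ttr the log2 ratio was 6.90 in I/R and 8.31 in sham, for Clic6 4.39 and 5.44, for Enpp2 3.21 and 3.42, and for Kl 2.13 and 2.36. For these 4 genes, given as examples, the ratio was larger in sham, but this did not hold for every leading gene. The fitted log2 fold change of Wdr86 was 4.68 without I/R replicate 3, where sham alone sets the split. Without sham replicate 1, where I/R alone sets it, the value was 5.32.

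**Figure D3:**
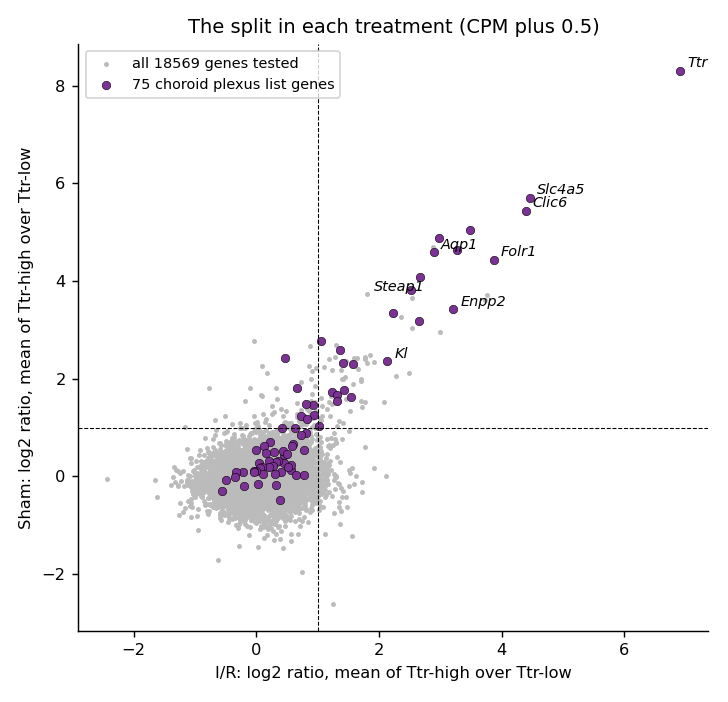
Log2 ratio of the Ttr-high mean to the Ttr-low library (CPM plus 0.5) in I/R on the x axis and in sham on the y axis, 1 point per gene for 18569 genes, with the 75 choroid plexus list genes in purple and 2-fold as dashed lines. The 24 genes past 4-fold in both treatments reach from the cloud of other genes towards Ttr at 6.90 and 8.31.

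The interaction of treatment and split asks whether the split had a different size in I/R and sham. By edgeR's quasi-likelihood test 0 of 18569 genes were called after Benjamini-Hochberg adjustment and 291 had an unadjusted p under 0.05. DESeq2 called 2 genes. With 1 Ttr-low library in each treatment and 2 residual degrees of freedom, equal sizes are not shown by this.

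The leading genes did not keep 1 ratio to Ttr. Between the 2 Ttr-high libraries of I/R, Ttr was 2.30 times higher in replicate 2 than in replicate 1 (95% exact counting interval 2.28 to 2.32). Folr1 was 2.97 times higher (2.65 to 3.32) and Kcnj13 2.85 times higher (2.24 to 3.65). In contrast, Kcne2 was 1.07 times higher (0.914 to 1.26), Abca4 1.16 times (1.03 to 1.30), Slc4a5 1.17 times (1.03 to 1.32), Aqp1 1.24 times (1.09 to 1.41) and Clic6 1.25 times (1.17 to 1.34). Over the 19 leading genes other than Ttr the median was 1.79, and the intervals of 13 lay below that of Ttr while 2 lay above it.

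Between the 2 Ttr-high sham libraries the ratios were closer together. Ttr was 1.65 times higher in sham replicate 3 than in sham replicate 2 (1.63 to 1.66). The median over the 19 genes was 1.80, with a range from 1.19 for Cox8b to 2.22 for Otx2, and the intervals of 2 genes lay below that of Ttr and those of 7 above it. Clic6, Kcne2 and Aqp1, whose ratios within I/R were 1.25 or less, were 1.82, 1.86 and 1.60 times higher in sham replicate 3. These intervals cover counting error only and no spread between pools, and the difference between the treatments was not tested. I/R replicate 1 was also the library with the highest injury sum, whose part in these ratios was not tested.

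**Figure D4:**
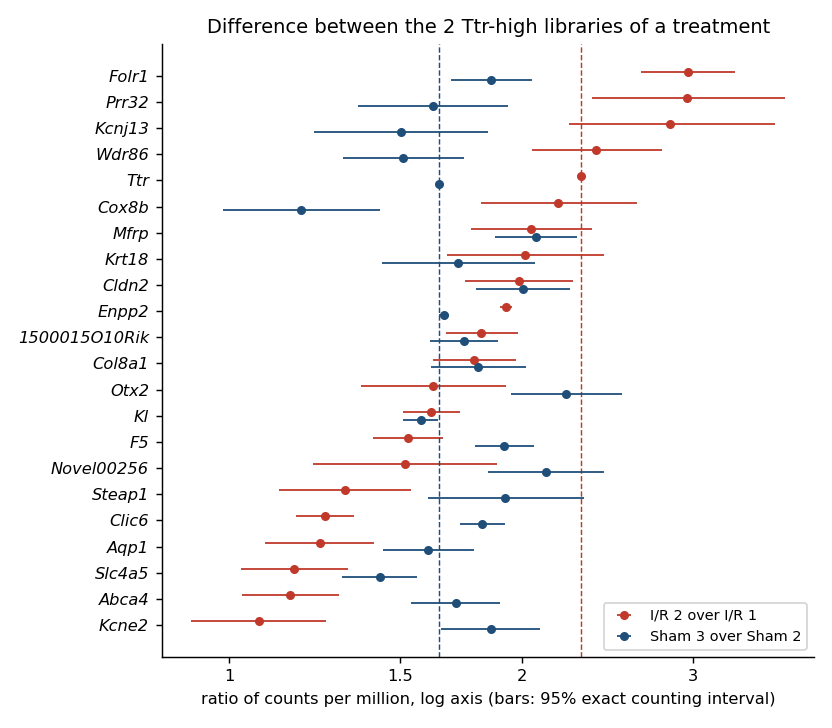
Ratio of CPM between the 2 Ttr-high libraries of I/R (red, replicate 2 over 1) and of sham (blue, replicate 3 over 2) for the markers and leading genes, on a log axis, with 95% exact counting intervals as bars. Dashed lines mark Ttr, at 2.30 and 1.65. The I/R ratios run from 1.07 for Kcne2 to 2.97 for Folr1, and the sham ratios from 1.19 to 2.22.

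Per gene length, Ttr dominated what the Ttr-high libraries had in addition. In FPKM, which divides counts by gene length and library size, its mean excess over the Ttr-low library of the same treatment was 2332, and that of Enpp2 was 358. These 2 were the only genes among the 10 with the largest excess in FPKM that met the rule for higher. The others were Mt2, Mt1, Spp1, Fth1, Hsp90ab1, Clu, the assembled locus Novel00910 and an unnamed gene. Mt2, a metallothionein that shares sequence with Mt1, had an excess of 821 FPKM, yet its level in CPM was 2779 and 1392 against 1353 in I/R and 205 and 259 against 221 in sham, so its sham libraries overlapped.

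Of the summed CPM of the 313 higher genes, Ttr alone made up 39.7% and 53.6% in the Ttr-high I/R libraries and 48.3% and 49.6% in the Ttr-high sham libraries. In the Ttr-low libraries it made up 2.59% and 1.58%.

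Only 2 of the 99 lower genes had a mean of at least 5 CPM in the Ttr-low libraries. Nhlh2, a neuronal basic helix-loop-helix factor, was at 1.76 and 3.78 CPM against 6.35 CPM in I/R and at 2.17 and 2.06 CPM against 4.17 CPM in sham, and fell by 1.09 on the log2 scale. The unnamed gene MGP_BALBcJ_G0007348 fell by 1.12.

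Treatment was not used to choose the libraries, so I/R was tested against sham with the split as a covariate. A call needed an adjusted p below 0.05 together with a change of more than 1.2-fold up or down. Over all genes 3924 (21.1%) were higher in I/R and 3628 (19.5%) were lower. Of the 75 choroid plexus list genes, 13 were higher (17.3%), 20 were lower (26.7%) and 42 were not called. Their median log2 fold change was -0.23, beside 0.03 for all genes. With library size as the only scaling, which moved the median of all genes to 0.28, 19 were higher and 12 lower. Over all 18569 genes, 6147 were then higher and 1990 lower. The direction of the majority also turned with limma on log2 of FPKM plus 1 (18 higher, 10 lower). There the median of all genes was 0.18, with 5918 higher and 1953 lower. In both settings the calls over all genes thus shifted the same way. Without sham replicate 3 the list had 10 higher and 8 lower, beside 2301 and 1817 of all 19246 genes tested. Without sham replicate 2 it had 7 higher and 9 lower, beside 2057 and 1540 of all 19153 genes tested.

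Among the markers, Kl was called and the others were not. Kl fell by 1.52 on the log2 scale (SE 0.23, adjusted p = 0.0029). In the Ttr-high libraries it was at 31.9 and 51.4 CPM in I/R against 97.0 and 152.7 CPM in sham, and in the Ttr-low libraries at 9.13 CPM in I/R against 24.0 CPM in sham. No I/R library overlapped a sham library of the same class. Over 16 alternatives its adjusted p ran from 2.25e-09 to 0.147 and it was called in 15, the exception being the fit without the split. Among the Ttr-high libraries alone it was called with a log2 fold change of -1.60 (adjusted p = 0.0146). Relative to 1000 CPM of Ttr, Kl was at 450.6 and 2431 CPM in the Ttr-low I/R and sham libraries. In the Ttr-high libraries it was at 14.8 to 39.0 CPM on that scale. The lists of hippocampal neurons also fell after I/R, with median log2 fold changes of -1.26 (dentate granule cells) and -1.23 (CA pyramidal cells). The part of cells other than choroid plexus in the fall of Kl was not tested.

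Ttr had a log2 fold change of 0.05 ± 0.43 (SE, adjusted p = 0.938), Folr1 -0.23 ± 0.45 (0.706), Kcnj13 -0.21 ± 0.47 (0.75) and Clic6 -0.77 ± 0.29 (0.0685). These values do not show that the levels were equal. Clic6 was called in 6 of the 16 alternatives, among them the 4 Ttr-high libraries alone (adjusted p = 0.0451). Its adjusted p over all of them ran from 0.000547, with the replicate block, to 0.606.

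Of the 313 genes that were higher across the split, 62 (19.8%) rose and 14 (4.47%) fell after I/R, beside 21.1% and 19.5% of all genes. Of the 87 past 4-fold, 3 rose and 6 fell. The 5 with the largest falls were Slc28a3, Igf2os, Sostdc1, Kl and the unnamed gene MGP_BALBcJ_G0019378. Leaving out 1 library ended the call of Slc28a3 and of Igf2os for 5 of the 6 libraries each, all but I/R replicate 2. Slc28a3 was at 1.10 CPM or less in every library and Igf2os, an antisense RNA of Igf2 whose reads cannot be told apart from those of Igf2 without strand, at 0.988 CPM or less. Sostdc1, a secreted antagonist of BMP and Wnt signals, was at 3.38 and 2.78 CPM against 10.7 and 18.3 CPM in the Ttr-high libraries and at 2.08 against 2.28 CPM in the Ttr-low ones. It fell by 1.61 (SE 0.45, adjusted p = 0.0255) and was not called in 6 of 16 alternatives, among them the fits without I/R replicate 1, I/R replicate 2, sham replicate 2 or sham replicate 3.

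Slc4a5 fell by 1.16 (SE 0.23, adjusted p = 0.0073), from 22.1 and 31.6 CPM in the Ttr-high sham libraries to 10.7 and 12.5 CPM in the Ttr-high I/R libraries. With almost no counts in the Ttr-low libraries, this comparison rests on those 4 libraries. It was called in 12 of 16 alternatives, with adjusted p from 1.31e-05 to 0.575. It was lost without the split (adjusted p = 0.575), with log2 Ttr CPM as the covariate (-0.60, adjusted p = 0.2), with limma on FPKM (-0.54, adjusted p = 0.0933) and without sham replicate 3 (-0.86, adjusted p = 0.0654).

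Of the other genes that fell, Trpm3, a cation channel whose gene also hosts the microRNA miR-204, fell by 1.02 (SE 0.19, adjusted p = 0.00542). It was called in 16 of 16 alternatives (adjusted p from 1.03e-14 to 0.0479). The lowest value came from the replicate block, whose fit had the fewest residual degrees of freedom. Trpm3 was at 62.3 and 92.8 CPM against 145.0 and 195.5 CPM in the Ttr-high libraries and at 43.6 against 75.2 CPM in the Ttr-low ones. As for Kl, the part of other cells in this fall was not tested. Msx1 fell by 0.99 (SE 0.19), Slc16a8 by 0.88 (SE 0.27), Igf2 by 0.76 (SE 0.22) and Slc13a4, a sulfate transporter, by 0.59 (SE 0.19). Msx1 was called in 14 of 16 alternatives, Slc13a4 in 10, Slc16a8 in 9 and Igf2 in 8. With library size as the only scaling, and without sham replicate 2 or sham replicate 3, Igf2, Slc16a8 and Slc13a4 were not called.

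Other genes that were higher across the split rose after I/R. The 5 with the largest rises, Gdnf, Fga, Cd300ld, Wfdc17 and AA467197, were nearly absent from sham, with 3 to 8 counts summed over the 3 sham libraries. Gdnf, a neurotrophic factor, was at 5.05, 2.68 and 1.73 CPM in I/R replicates 1, 2 and 3, and at 0, 0.0984 and 0.0291 CPM in sham. Its summed counts were 73.8 times those in sham (95% exact interval 31.4 to 229, counting error only). For all 62 genes that rose, the median over genes of the sham mean was 0.408 CPM. Of the 62, 57 were higher in I/R replicate 1 than in I/R replicate 2, whereas Ttr was higher in replicate 2. The share among all 3924 genes higher in I/R was not computed, so this is not shown to be particular to the 62 genes. Within I/R, the split and the injury in replicate 1 cannot be told apart for these genes. In sham their summed level was 139 and 179 CPM in the Ttr-high libraries against 60.5 CPM in the Ttr-low one. The rule for higher required this order of each gene. Among the choroid plexus list genes that were higher across the split, 3 rose: Trpv4, an osmosensitive cation channel (0.92 ± 0.30), Lepr (0.82 ± 0.25) and the junction protein gene Cgnl1 (0.42 ± 0.14). None of these 3 was called in the Ttr-high libraries alone, where Trpv4 had 0.50 (adjusted p = 0.136). Over all alternatives the adjusted p of Trpv4 ran from 1.27e-07, with the replicate block, to 0.459. Without I/R replicate 3 or sham replicate 1, the I/R comparison rests on the same 4 Ttr-high libraries. The 3 genes were not called in those 2 fits either, which nearly repeat that result. Without sham replicate 2 the 3 genes were also not called.

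**Figure D5:**
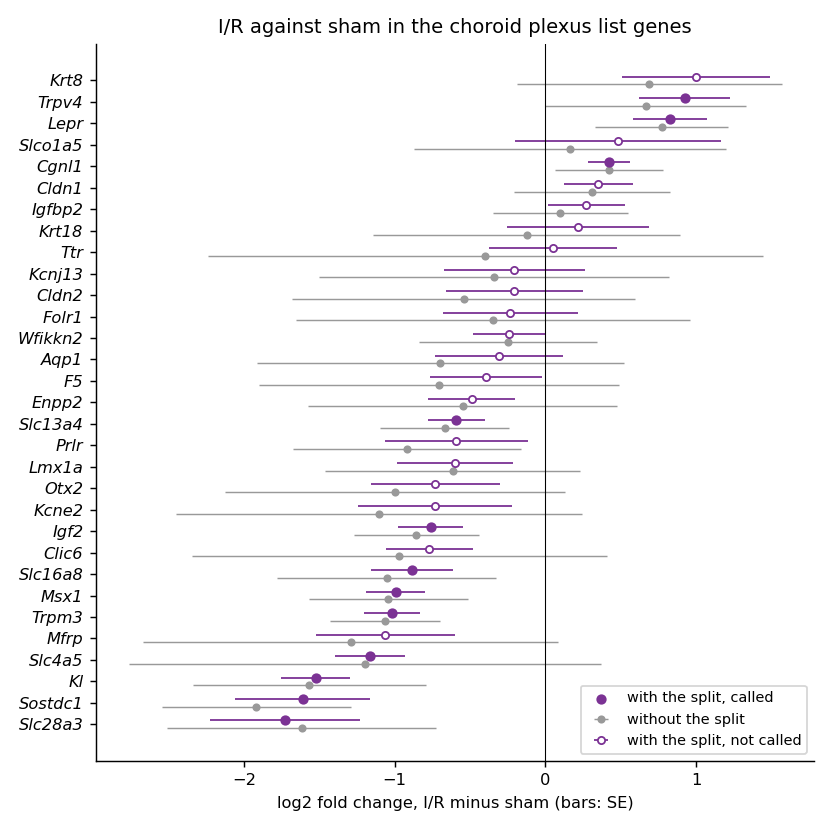
Log2 fold change of I/R minus sham for the 31 choroid plexus list genes that were higher across the split, with SE as bars. Purple points are the fit with the split as a covariate, filled where the gene was called, and grey points the fit without it. The grey bars are longer for most genes, for example 1.57 against 0.23 for Slc4a5.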

How the data were processed

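Bulk RNA-seq of hippocampus was available for 3 I/R and 3 sham libraries. The authors aligned reads with TopHat 2 to an Ensembl genome and counted reads per gene with HTSeq, and the deposited table holds these raw counts. The submitters' processing notes also list Bowtie 0.12.2 and mm8, but identifiers and coordinates in the table are of Ensembl's BALB/cJ annotation (40303 genes) or assembled loci (1083), while the labels give C57BL/6 mice. Strand use and the treatment of multi-mapping reads are not given in the sources used here. The deposited FPKM are the authors' values, counts divided by gene length and library size. For 72.8% of genes checked, the length they imply is shorter than the listed one. The columns of the authors' own comparison, which hold fold changes and p-values, and the authors' group means of normalized counts, a score of their own scaling, were not used. Of 41390 lines, 4 were the rest of a broken line and were rejoined, giving 41386 genes. The 11253 genes without a name held 4.24% to 4.74% of counts and stayed in library sizes and tests.

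Genes were filtered with filterByExpr (18569 kept) and counts fitted with edgeR 4.0.16 in R 4.3.3 (TMM, glmQLFit robust, glmQLFTest, Benjamini-Hochberg over all genes tested) with treatment and Ttr class as terms. TMM factors were 0.908 to 1.15. SE is the log2 fold change divided by the square root of F. The labels do not say that libraries came from separate cages or batches, so p-values measure the spread between these pools, and all intervals cover counting error only. Named genes were the 5 markers, the 20 largest split fold changes with a mean of at least 5 CPM, the 5 largest falls, the 10 largest excesses in FPKM, up to 6 abundant members of each list, and the 5 largest rises and falls after I/R among the split genes. Other genes were chosen after their values were seen. The values of 1 gene of the ion and water transport list are not reported here. The members and lists were chosen with earlier results of these data known. Alternatives were other scaling, no count filter, other thresholds and covariates, a replicate block, DESeq2 1.42.0, limma 3.58.1 and leaving out each library.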

Additional observations from a re-analysis of the deposited data

How the results depend on the processing

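Over the alternatives run, the median of the choroid plexus lists across the split stayed above 0. The number of genes called higher or lower across the split, 313 and 99, was 669 and 731 with no count filter and 87 and 2 at 4-fold; lower genes were 162 with the replicate block. Choroid plexus genes called higher were 20 at 4-fold, in place of 31. Genes at least 2-fold higher in both treatments, 75, were 24 at 4-fold and 138 with FPKM plus 0.1. For I/R, choroid plexus genes called were 12 at a fold change over 2 and 21 with no covariate, in place of 33. Split genes called were 48 with no covariate, in place of 76. Over all genes, 7756 were called with no covariate, in place of 7552. At a fold change over 2, 1836 of all genes were higher and 903 lower. Interaction calls were 38 with no count filter and 2 with DESeq2, in place of 0. The cause of these differences was not tested, other than that the thresholds and filters change how many genes can be counted.

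Leaving out each library in turn gave 317 to 932 genes higher across the split (932 without sham replicate 1, 715 without I/R replicate 3 and 497 without sham replicate 2) and 187 to 625 lower, with every removal above 1.5 times the count of 99. These fits have fewer libraries that must keep the order. The number of choroid plexus genes called for I/R ran from 16 (without sham replicate 2) to 35, and 18 without sham replicate 3. Calls over all genes fell as well. They were 2057 higher and 1540 lower without sham replicate 2, and 2301 and 1817 without sham replicate 3. With all libraries they were 3924 and 3628. Split genes called ran from 39 (without sham replicate 2) to 71, and 50 without I/R replicate 3. Without a Ttr-low library, the remaining one sets the split for both treatments. The I/R comparison then rests on the 4 Ttr-high libraries, so those fits nearly repeat the fit of these libraries alone.

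The deviations of same-numbered libraries from their treatment mean correlated at -0.236 to 0.0426, and 0 of 6 libraries correlated best with its own number. These deviations include the split, and the Ttr-low libraries carry different numbers. The check therefore cannot show whether the replicate numbers pair the libraries. With the replicate block, 109 split genes and 45 choroid plexus genes were called for I/R. Over all genes 4687 were then higher in I/R and 4489 lower, beside 3924 and 3628 without the block. The block adds terms, and its fit has the fewest residual degrees of freedom of the alternatives run. Among the leading genes that did not pass the test for I/R, 39 of 320 values under the alternatives had the other sign, none of them called. These values include a fold change over 2, which repeats the main value of each gene. They also include Ttr with its own level as covariate, where its value is held near 0. Depth limits genes such as Slc4a5 in the Ttr-low libraries, at 1 and 2 counts.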

Other observations

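Further genes that were higher in the Ttr-high libraries and are on no list were picked after their values were seen. Ace, angiotensin-converting enzyme, was at 66.3 and 72.6 CPM against 24.8 CPM in I/R and at 60.6 and 85.6 CPM against 13.8 CPM in sham. Sulf1, an extracellular enzyme that removes sulfate from heparan sulfate chains, was at 44.2 and 65.4 CPM against 22.1 CPM in I/R and at 35.7 and 57.8 CPM against 6.81 CPM in sham. The collagen genes Col9a3 and Col8a2 had log2 fold changes of 1.89 ± 0.22 and 2.23 ± 0.29, and the glucose transporter gene Slc2a12 had 2.31 ± 0.31. Lbp, lipopolysaccharide-binding protein, had 1.75 ± 0.21.

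A few scarce genes had 0 counts in both Ttr-low libraries. Defb11, a beta-defensin, was at 0.637 and 1.48 CPM in the Ttr-high I/R libraries and at 1.35 and 3.02 CPM in the Ttr-high sham libraries. Sult1c2, a sulfotransferase, was at 0.593 and 1.40 CPM and at 1.16 and 1.54 CPM. In the other direction, Rbp3, the interphotoreceptor retinoid-binding protein, was at 0.0879 and 0.400 CPM against 0.650 CPM in I/R and at 0.0738 and 0.116 CPM against 1.43 CPM in sham.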
